A study of Mus musculus with 8 samples.

Results

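The integrins and the core genes of focal adhesions were examined in whole knee joints of mice, 37 genes taken by gene name from a list of integrin chains and cytoplasmic adhesion proteins. Of these, 36 had a row among the 20681 genes of the expression table, 26 integrin chains and 10 cytoplasmic genes. Fermt1, the kindlin gene of epithelia, had no row and was not analysed here. The study compared 4 joints labelled control with 4 labelled knockout, all of them described as carrying an aggrecan-driven Cre (Acan-Cre) and Loxl2 alleles flanked by loxP sites (Loxl2 fl/fl). Acan-Cre is active mainly in cartilage cells, so any loss of Loxl2 in a whole joint would be partial. The controls are described as vehicle-treated and their library names read LOXL2wt, those of the other group LOXL2ko, and what the knockout group received in place of vehicle is not given in the labels used here. The library names of both groups also carry the letters DMM without further explanation, and the series title speaks of a post-traumatic injury. Age, sex and time after injury are not given in the labels used here.

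Integrins are cell surface receptors made of 1 α and 1 β chain that bind the extracellular matrix or other cells. On the inside, talin and kindlin bind the β chain tail and switch the receptor on, and vinculin, paxillin, zyxin, integrin-linked kinase, parvin and focal adhesion kinase join it to actin and to signalling. In a joint, chondrocytes and fibroblasts hold collagen and fibronectin through integrins, osteoclasts seal themselves to bone through αvβ3, leukocytes use chains of their own, and muscle fibres attach to laminin through α7β1.

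The libraries held 13991000 to 17411617 reads assigned to genes. Values are normalised read counts, the reads of a gene divided by 1 size factor per library, and are given as mean ± SD with n = 4 per group. Differences are log2 differences of the group labelled knockout from the group labelled control, with the standard error of the limma fit, and a gene was called at a limma adjusted p under 0.05 across the 14949 genes tested. The labels do not say that the samples of a group were separate animals, so the p-values measure the spread between these samples, and in a whole joint fewer cells of a type and less RNA per cell cannot be told apart. Loxl2, the targeted gene, had 282, 349, 1135 and 311 normalised reads in the control libraries, in the order of replicates 1 to 4 used throughout, and 893, 1468, 960 and 1518 in those labelled knockout. The targeted transcript was thus higher in the libraries labelled knockout (1.44 on the log2 scale, limma adjusted p = 0.0294, exact permutation p = 0.0857), against its label, and control replicate 3 lay above 2 of them. That call was lost without control replicate 1 (limma adjusted p = 0.0666), 2 (0.0798) or 4 (0.0767) and without knockout replicate 2 (0.0745) or 4 (0.0849). The groups are therefore called by their labels. Joint markers were present, 8 of 9 chondrocyte markers having a row, with Matn1 the exception. The 12 markers of skeletal muscle took 12.1% to 12.6% of the summed values of the control libraries and 7.28% to 10.1% in those labelled knockout.

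Over the whole list, 8 of the 35 tested genes rose in the libraries labelled knockout, 1 fell and 26 were not called. The share called, 25.7%, lay near the 23.2% of all tested genes called in either direction, while in the upward direction 22.9% of the list stood beside a background of 11.6% higher, and a further 11.6% of all genes were lower. The list was chosen with earlier results of these data known, so its shares cannot serve as a test against that background. All 8 rises were integrin chains: Itga11, Itgax, Itgb2, Itgb8, Itgav, Itga5, Itgb5 and Itgb3. The 1 fall was Tln2, a cytoplasmic gene. The median log2 difference was 0.29 over the tested members, 0.42 over the 25 tested integrin chains and 0.07 over the 10 cytoplasmic genes, beside 0.00 over all genes tested. For 7 members the libraries labelled knockout all lay above the control libraries, and for 1 they all lay below, against 11.7% and 13.4% of all genes tested. Of the 37, Itgad, with at most 10 reads in a library, was the only member with a row that did not pass the filter on low values. Leaving out control replicate 3 gave 8 members higher and 1 lower, with Itgb3 lost and Parva gained. Without any 1 of control replicate 2, control replicate 4 and knockout replicate 4 the count was 5 higher and 1 lower in each case. Without control replicate 1 it was 11 higher and 2 lower, without knockout replicate 3 also 11 and 2, and without knockout replicate 2 it was 6 and 3. Calls over all 14949 genes tested also varied with the library left out. With all 8 libraries 1732 were called higher. This number was 974, 1154 and 831 without control replicate 2, control replicate 4 and knockout replicate 4. It was 1554, 1840 and 1147 without control replicate 1, knockout replicate 3 and knockout replicate 2, and 1801 without control replicate 3. On the recovered reads edgeR called 7 members higher and 1 lower, beside 11.3% and 10.9% of all genes, and DESeq2 called 9 and 1, beside 13.2% and 12.5%.

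**Figure D1:**
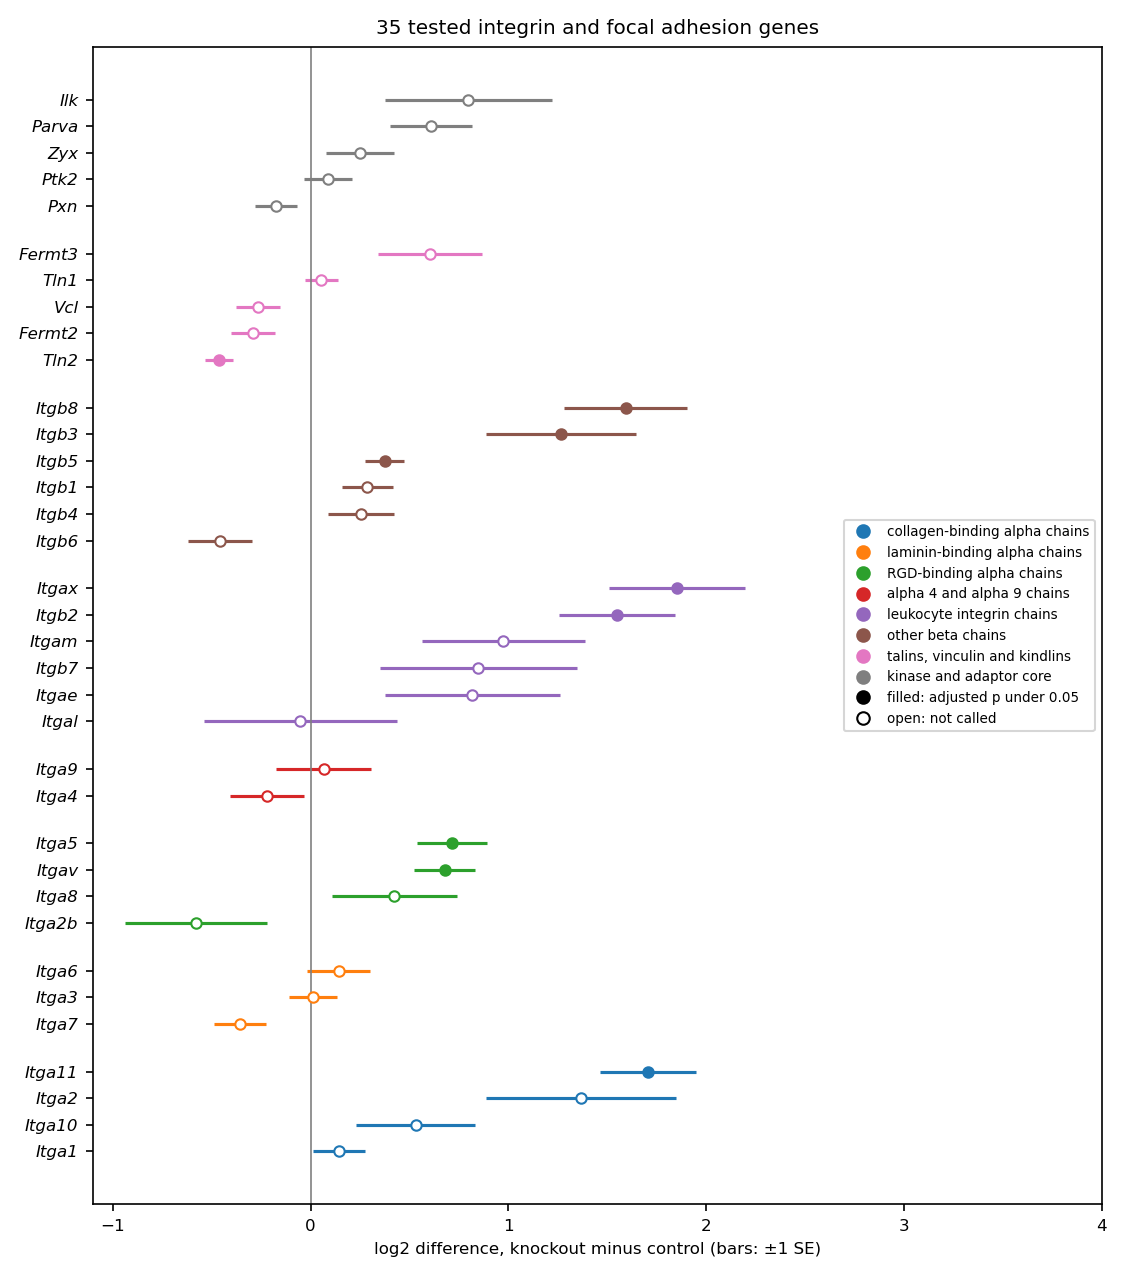
Log2 difference of each of the 35 tested genes, libraries labelled knockout minus control, with bars of 1 standard error from the limma fit, coloured by role and filled where the limma adjusted p was under 0.05. The 8 filled points to the right of 0 are integrin chains, and Tln2 is the only filled point to the left.

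Among the 4 α chains that pair with β1 to bind collagen, Itga11 rose and the other 3 were not called. Itga11 encodes the fibroblast receptor for fibrillar collagen, and lies on chromosome 9 from 62677826 to 62783982 (plus strand, mm10, GENCODE M21). Its normalised read count was 177, 192, 395 and 175 in the control libraries and 682, 727, 637 and 856 in those labelled knockout. The groups did not overlap, and the highest control was replicate 3. The mean went from 235 ± 107 to 725 ± 94.1, or 1.71 ± 0.24 (SE) in log2 units (limma adjusted p = 0.00422, exact permutation p = 0.0286), a 3.26-fold rise that was kept in all 17 alternative fits. Itga1, which prefers basement membrane collagen, had 311 ± 23.2 and 347 ± 59.6 (log2 difference 0.14, limma adjusted p = 0.460). Itga10, the collagen receptor chain typical of chondrocytes, had 241 ± 115 and 332 ± 78.8 (0.53, limma adjusted p = 0.221). It was called without control replicate 1 (0.82, limma adjusted p = 0.0390), and 33.5% of its exonic bases are shared with Gm42957 on the same strand. Itga2, known from platelets and epithelia, had 46.5, 14.1, 14.0 and 15.3 in the control libraries and 102, 34.2, 31.5 and 65.1 in those labelled knockout. Only control replicate 1 stood inside the range of the other group, and the difference of 1.37 was not called (limma adjusted p = 0.0653). It was called by limma without that library (1.77, limma adjusted p = 0.0224) or without knockout replicate 3 (limma adjusted p = 0.0474). With all 8 libraries DESeq2 called it (DESeq2 adjusted p = 0.0315), as did limma with a term for the replicate number (limma adjusted p = 0.0292). Of the 10 fibroblast markers 7 were called higher and none was at 0. Their summed value was 129034, 54780, 142680 and 50092 in the control libraries and 183302 to 290601 in those labelled knockout. Control replicate 1 was near control replicate 3 in this sum, but not in Itga11. The 2 sums were made up differently, with Col1a1 at 58034 in control replicate 1 and 30458 in control replicate 3. Near sums therefore do not show a near content of fibroblasts. The part of fibroblasts in the rise of Itga11 was not tested.

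The window of 250 bases before the start of Itga11 (RefSeq, GRCm38.p6, chr9:62677605-62677854, plus strand) is shown since this gene had the smallest p of the list, together with that of Itgav (chr2:83724147-83724396, plus strand), the only other rising chain whose listed window held the same letters. Capitals mark matches to GAGGAAG, the letters of an ETS-type site, here on the opposite strand of both.
Itga11: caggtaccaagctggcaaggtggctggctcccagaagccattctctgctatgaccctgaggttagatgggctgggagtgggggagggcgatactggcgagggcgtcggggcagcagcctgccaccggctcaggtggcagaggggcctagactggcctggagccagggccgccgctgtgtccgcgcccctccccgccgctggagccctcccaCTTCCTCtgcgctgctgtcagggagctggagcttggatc
Itgav: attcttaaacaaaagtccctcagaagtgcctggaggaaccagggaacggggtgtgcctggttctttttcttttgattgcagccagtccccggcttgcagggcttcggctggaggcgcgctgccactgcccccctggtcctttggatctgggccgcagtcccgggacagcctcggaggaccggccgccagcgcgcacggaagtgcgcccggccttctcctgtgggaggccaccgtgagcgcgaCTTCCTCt
Of the 28 windows of the 25 members that RefSeq's table listed, 5 held these letters on either strand (17.9%), against 10.6% of the 32851 windows of all genes. The other 3 were windows of Itgam, Itga2b and Itgb6, which were not called, and the windows of the rising chains Itga5, Itgax, Itgb5 and Itgb8 held 0 matches. A match describes the letters only.

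Of the 3 α chains for laminin, none was called. Itga7, the chain of muscle fibres and the most abundant α chain per kilobase of exon, had 2289, 2763, 2579 and 2328 in the control libraries and 1751, 1768, 2556 and 1782 in those labelled knockout. Only knockout replicate 3 lay within the control range, and without it the difference of -0.36 (limma adjusted p = 0.0746, exact permutation p = 0.0857) became -0.49 and was called (limma adjusted p = 0.00780). Itga6, found in endothelium, epithelium and nerve, had 625 ± 78.7 and 699 ± 157, and Itga3, an epithelial chain, 173 ± 11.4 and 175 ± 18, with differences of 0.14 and 0.01.

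Of the 4 α chains that read the RGD motif of matrix proteins, Itga5 and Itgav rose and Itga8 and Itga2b were not called. Itga5, which pairs with β1 as the classical fibronectin receptor (chromosome 15, 103344286 to 103366763, minus strand), had 508, 480, 762 and 494 normalised reads in the control libraries and 763, 996, 773 and 1141 in those labelled knockout. The groups were separate only by a narrow margin, since control replicate 3 lay just under knockout replicate 1. The difference was 0.72 ± 0.18 (SE, limma adjusted p = 0.0200, exact permutation p = 0.0286). Itga5 lost its call when control replicate 2 (limma adjusted p = 0.0588) or 4 (0.0534) or knockout replicate 2 (0.0525) or 4 (0.0591) was left out, and with a term for the replicate number, the replicate block (0.0534).

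Itgav, the αv chain that pairs with β1, β3, β5, β6 and β8 (chromosome 2, 83724397 to 83806916, plus strand), had 623, 535, 729 and 652 in the control libraries and 1192, 1002, 748 and 1166 in those labelled knockout. Knockout replicate 3 stood close to control replicate 3 and the other libraries of its group far above. The difference was 0.68 ± 0.16 (SE, limma adjusted p = 0.0151, exact permutation p = 0.0286) and was called in all 17 alternative fits, from 0.60 to 0.83. Itga8, known from smooth muscle and mesenchyme, had 59.3 ± 25.4 and 75.2 ± 13.4 (0.42, limma adjusted p = 0.350). Itga2b, the platelet chain that pairs with β3, had 375, 241, 140 and 223 in the control libraries and 148, 305, 109 and 115 in those labelled knockout (-0.58, limma adjusted p = 0.268). Its groups overlapped, as did those of Itgb3, which was called higher.

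The β partners of αv were examined next. Itgb3, which forms αvβ3 on osteoclasts and αIIbβ3 on platelets (chromosome 11, 104608000 to 104670476, plus strand), had 735, 201, 286 and 283 in the control libraries and 1259, 568, 632 and 898 in those labelled knockout. Control replicate 1 lay inside the range of the other group, and the remaining controls were below every library of it. The difference was 1.27 ± 0.38 (SE, limma adjusted p = 0.0378, exact permutation p = 0.0857). Itgb3 lost its call in 7 of the 17 alternative fits, the most among the 9 called members. These were edgeR (edgeR adjusted p = 0.0641), DESeq2 (DESeq2 adjusted p = 0.0629) and the fits without control replicate 2 (limma adjusted p = 0.10), 3 (0.0699) or 4 (0.0879), or without knockout replicate 1 (0.0906) or 4 (0.0966). Without control replicate 1 it was 1.65 and called. The 8 osteoclast markers, 7 of them called higher and none at 0, summed to 14065 in control replicate 1, to 1868 to 2535 in the other controls, and to 10270 to 39329 in the libraries labelled knockout. Of the 6 tested platelet and megakaryocyte markers 0 were called by limma, and with 7 of 8 genes in the table their sum was 415 to 949 in the control libraries and 347 to 742 in those labelled knockout, Gp1bb having no row and Itga2b itself being on the list. The part of neither cell type in the value of Itgb3 was tested.

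Itgb8, whose product with αv binds and activates latent TGF-β (chromosome 12, 119158022 to 119238802, minus strand), was the β chain of lowest level per kilobase. It had 13.0, 13.1, 26.2 and 15.3 normalised reads in the control libraries and 41.9, 41.1, 75.0 and 51.9 in those labelled knockout, so the groups did not overlap. The difference of 1.59 ± 0.31 (SE, limma adjusted p = 0.00911, exact permutation p = 0.0286), 3.02-fold, was called in all 17 alternative fits although it rests on 12 to 69 reads per library. Itgb5, a receptor chain for vitronectin (chromosome 16, 33829665 to 33949338, plus strand), was far more abundant and rose less. Its values were 2837, 2351, 3029 and 2617 in the control libraries and 3307, 3780, 3216 and 3715 in those labelled knockout, again separate, with a difference of 0.37 ± 0.10 (SE, limma adjusted p = 0.0253, exact permutation p = 0.0286). That call was lost without control replicate 2 (limma adjusted p = 0.0719), control replicate 4 (0.0645), knockout replicate 2 (0.0655) or knockout replicate 4 (0.0709), and under the replicate block (0.0828).

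Itgb6, usually an epithelial partner of αv that also activates TGF-β, differed downwards and was not called. It had 429, 529, 500 and 545 in the control libraries and 324, 517, 332 and 313 in those labelled knockout (-0.46, limma adjusted p = 0.0684), and only knockout replicate 2 lay in the control range. Without that library the difference was -0.63 and called (limma adjusted p = 0.0144). Itgb1, the common partner of many α chains and the most abundant β chain here, had 4442 ± 502 and 5442 ± 842, a difference of 0.29 that was not called (limma adjusted p = 0.132). It was called under quantile normalisation (limma adjusted p = 0.0263), under a scaling on sums of genes without muscle, neutrophil and the highest genes (0.0440), and without knockout replicate 3 (0.0433). Itgb4, the laminin chain of epithelium and nerve sheath that pairs with α6, had 162 ± 21.6 and 195 ± 40.0 (0.25, limma adjusted p = 0.295). The α4 and α9 chains of leukocytes, lymphatic and muscle cells were not called, with differences of -0.22 for Itga4 and 0.07 for Itga9.

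**Figure D2:**
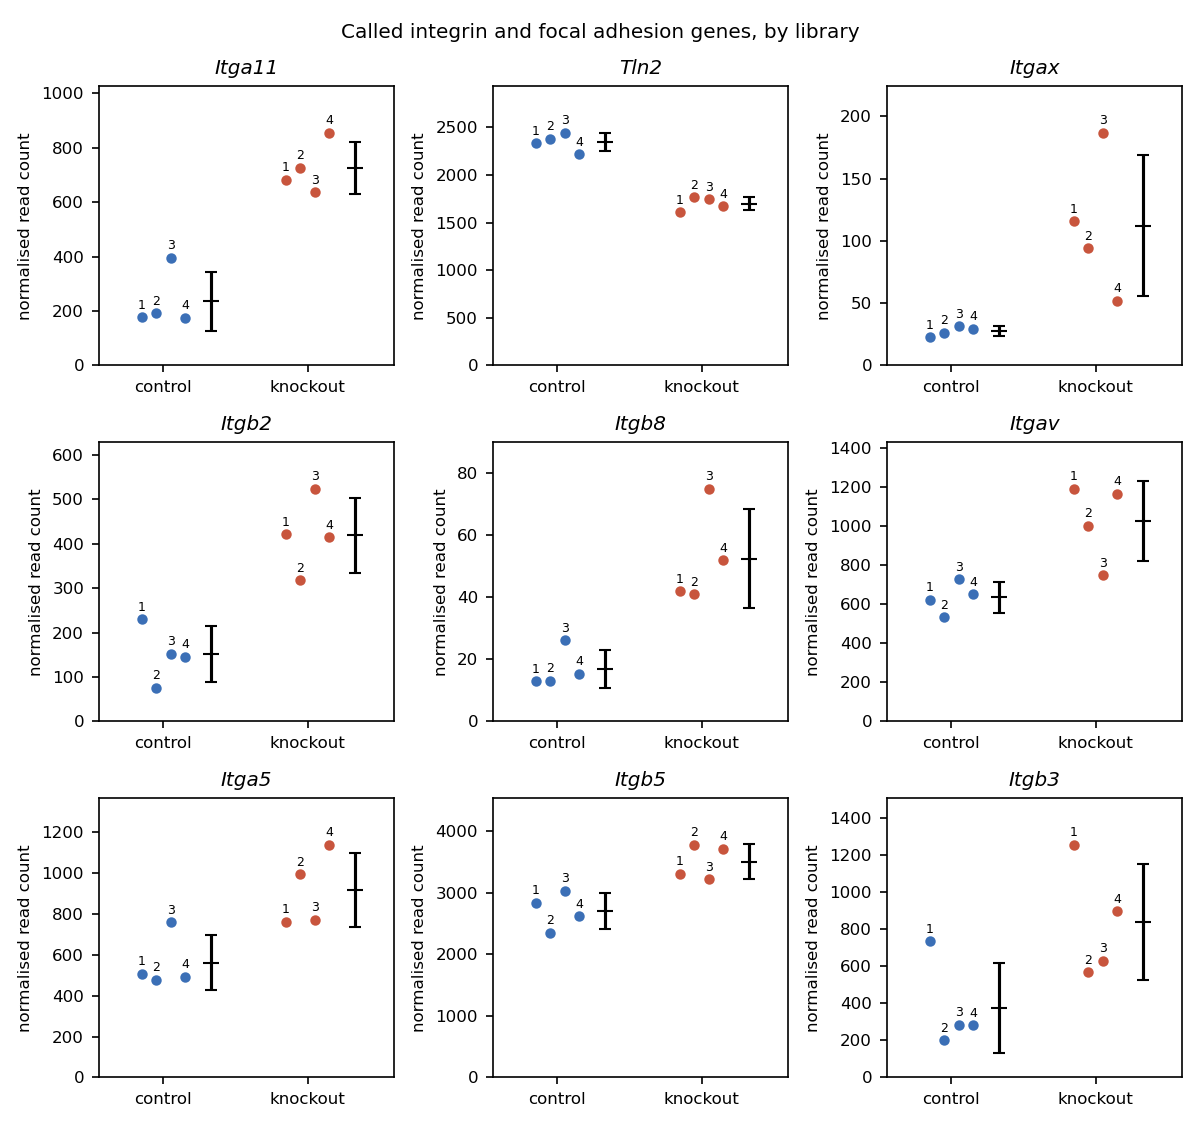
Normalised read count of the 9 called genes in each library, numbered by replicate, with the mean and SD of each group beside the points and an axis from 0. The groups are separate for all but Itgb3, where control replicate 1 lies above knockout replicates 2 and 3, and control replicate 3 is the highest control in 6 of the 8 genes that rose.

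Of the 7 chains that leukocytes use, Itgb2 and Itgax rose, 4 were not called and Itgad was too low to test. Itgb2, the β chain CD18 shared by αL, αM, αX and αD (chromosome 10, 77530252 to 77565708, plus strand), had 230, 75.7, 152 and 146 in the control libraries and 422, 317, 524 and 415 in those labelled knockout. The groups did not overlap, with a difference of 1.55 ± 0.29 (SE, limma adjusted p = 0.00837, exact permutation p = 0.0286), 2.93-fold. Itgax, the αX chain CD11c of dendritic cells and some macrophages (chromosome 7, 128129547 to 128150657, plus strand), had 22.7, 26.2, 31.8 and 29.6 in the control libraries and 116, 94.1, 187 and 51.9 in those labelled knockout. Its control libraries were tight and the other group spread over a wide range, all of it higher. The difference of 1.85 ± 0.34 (SE, limma adjusted p = 0.00784, exact permutation p = 0.0286) was the largest of the list, 3.61-fold. Both genes were called in all 17 alternative fits.

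The other α partners of Itgb2 were not called. Itgam, the αM chain CD11b of macrophages and neutrophils, had 71.4, 20.2, 63.6 and 85.4 in the control libraries and 134, 72.7, 101 and 125 in those labelled knockout, where only knockout replicate 2 lay within the control range (0.97, limma adjusted p = 0.112, exact permutation p = 0.0571). The annotation shares 68.7% of its exonic bases with Gm49368 on the same strand, so its count is uncertain. Itgal, the αL chain CD11a of lymphocytes, had 63.8, 22.2, 23.4 and 32.9 in the control libraries and 59.8, 38.5, 32.6 and 12.3 in those labelled knockout, with no consistent direction (-0.05, limma adjusted p = 0.950). Itgad had 4.70 ± 3.19 and 6.07 ± 1.19 normalised reads. Itgb7 had 52.2 ± 31.6 and 91.2 ± 55.6 (0.85, limma adjusted p = 0.237), and Itgae, its αE partner on lymphocytes of epithelia, 6.46 ± 3.97 and 11.1 ± 1.77 (0.82, limma adjusted p = 0.203). Of the 10 macrophage markers 9 were called higher and none was at 0, and they summed to 1487 to 3384 in the control libraries and 5409 to 7259 in those labelled knockout. Of the neutrophil markers 8 were tested and 0 called, with a sum of 1403 to 5683 in the control libraries and 1113 to 2727 in the others, and 3 of 8 T and NK cell markers were abundant enough to test, of which Cd3e was called lower. The part of macrophages in the rise of Itgb2 and Itgax was not tested.

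Itgam and Itgax are neighbours on chromosome 7. The windows of 250 bases before their starts are shown (RefSeq, GRCm38.p6, plus strand, chr7:128062390-128062639 for Itgam and chr7:128129300-128129549 for Itgax). Itgax was called and Itgam was not, a contrast that rests on the threshold. Itgam also differed upwards (0.97) and was called under the replicate block (limma adjusted p = 0.0477). Capitals mark GAGGAAG in Itgam and TGAGTCA, a match to the AP-1 motif TGANTCA, in Itgax.
Itgam: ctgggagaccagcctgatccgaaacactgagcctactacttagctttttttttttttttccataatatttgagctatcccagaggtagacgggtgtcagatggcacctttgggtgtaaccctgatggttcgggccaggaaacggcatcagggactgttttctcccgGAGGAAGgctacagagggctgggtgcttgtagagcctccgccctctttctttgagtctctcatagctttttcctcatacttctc
Itgax: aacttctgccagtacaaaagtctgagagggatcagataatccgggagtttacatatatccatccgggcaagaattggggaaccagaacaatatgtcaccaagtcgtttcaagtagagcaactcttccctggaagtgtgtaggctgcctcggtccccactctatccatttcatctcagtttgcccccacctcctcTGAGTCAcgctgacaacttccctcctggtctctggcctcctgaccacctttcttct
The AP-1 letters stood in 2 of the 28 member windows (7.14%), those of Itgax and Zyx, and in 6.75% of all windows, searched on both strands. The TEAD letters GGAATG were in 3 member windows (10.7%) and 12.6% of all. The CArG box of serum response factor, searched by its usual definition, was in 3 member windows (10.7%), those of Vcl, Fermt2 and an inner start of Itgb6, and in 1.47% of all. None of these 3 genes was called.

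Inside the cell, 1 of 10 tested genes was called (10%), beside 23.2% of all genes tested. Tln2, the talin abundant in muscle (chromosome 9, 67217087 to 67559703, minus strand), had 2333, 2379, 2444 and 2215 in the control libraries and 1609, 1766, 1745 and 1673 in those labelled knockout. Both groups were tight and separate, and the log2 difference of -0.46 ± 0.07 (SE, limma adjusted p = 0.00463, exact permutation p = 0.0286), to 0.725 of the control level, was called in all 17 alternative fits. Tln1, the talin of most other cells, had 3109 ± 113 and 3237 ± 279 (0.06, limma adjusted p = 0.660), but was called higher under quantile normalisation (0.29, limma adjusted p = 0.0433). All 12 skeletal muscle markers had differences below 0 and 6 were called lower, the rest not called, with summed shares as given above, and none was at 0. Their part in the fall of Tln2 was not tested.

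The kindlins, which help talin to activate integrins, were not called. Fermt2, the widely expressed kindlin-2 and the most abundant cytoplasmic member per kilobase, had 3273, 2859, 2946 and 3533 in the control libraries and 2435, 3134, 2337 and 2435 in those labelled knockout (-0.29, limma adjusted p = 0.0874), and was called without knockout replicate 2 (-0.39, limma adjusted p = 0.0319). Fermt3, the kindlin of blood cells, had 177, 94.9, 72.0 and 140 against 198, 147, 203 and 155 (0.60, limma adjusted p = 0.123), and was called without control replicate 1 (0.81, limma adjusted p = 0.0430). Vcl, which ties talin to actin, had 650 ± 82.1 and 538 ± 44.4 (-0.27, limma adjusted p = 0.113), was called without control replicate 1 (-0.36, limma adjusted p = 0.0361), and shares 25.5% of its exonic bases with Ap3m1 on the opposite strand.

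The kinases and adaptors of the core were all not called. Parva, the parvin that binds integrin-linked kinase and actin, came nearest, with 494, 439, 716 and 440 in the control libraries and 662, 954, 595 and 989 in those labelled knockout. Control replicate 3 lay among the other group (0.61, limma adjusted p = 0.0567), and without it the difference was 0.77 and called (limma adjusted p = 0.0194), as it was without knockout replicate 3 (0.0293), with DESeq2 (DESeq2 adjusted p = 0.0252) and under the sum scaling (limma adjusted p = 0.0314). Ptk2, the focal adhesion kinase, had 470 ± 52.6 and 501 ± 64.3 (0.09). Pxn, paxillin, had 2358 ± 170 and 2099 ± 285 (-0.17), a direction that turned under quantile normalisation (0.01). Zyx, zyxin, had 578 ± 30.3 and 706 ± 181 (0.25), and was called without knockout replicate 1 (0.43, limma adjusted p = 0.0381). Ilk, integrin-linked kinase, was listed at only 8.10 ± 3.96 and 14.0 ± 3.67, with 4 to 17 reads per library, and 89.7% of its exonic bases are shared with Taf10 and Rrp8 on the opposite strand. Since the use of strand in counting is not given in the sources used here, that value was not taken as the level of the gene.

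Levels were set side by side per kilobase of exon, the length being that of all annotated exons of a gene joined. This length can exceed that of the transcripts made, so the order and the shares are approximate. Itga10, Itgam, Vcl and Ilk also share over 20% of their exonic bases with other genes. The order of levels was led by few chains. Among β chains Itgb1 held 52.4 ± 1.35% of the summed normalised reads per kilobase in the controls and 48.9 ± 3.10% in the libraries labelled knockout, and Itgb5 36.7 ± 1.0% and 36.4 ± 1.35%. Over the 8 libraries these levels were 925 to 1535 for Itgb1 and 662 to 1064 for Itgb5, which overlap, and both lay above every other β chain. Itgb3, Itgb2 and Itgb6 had overlapping ranges of 34.0 to 213, 24.8 to 172 and 43.9 to 76.7. In the controls Itgb6 had the highest mean of these, 70.4 beside 63.8 for Itgb3 and 49.5 for Itgb2, and in the libraries labelled knockout the lowest, 52.2 beside 142 and 137. Over all libraries Itgb8 was last, at 1.17 to 6.78. Among α chains Itga7 led in both groups, at 308 ± 27.6 normalised reads per kilobase in the controls and 243 ± 48.8 in the libraries labelled knockout. In the controls Itga5 (114), Itga6 (69.3), Itgav (59.1), Itga10 (46.5) and Itga11 (45.8) followed in the mean, and in the libraries labelled knockout Itga5 (186), Itga11 (141), Itgav (95.6) and Itga6 (77.4). Ordered by the mean over both groups, each neighbouring pair of α chains overlapped over the 8 libraries. The share of Itga7 in the α chains was 38.2 ± 4.90% and 24.4 ± 4.96%, and that of Itga11 5.57 ± 2.12% and 14.2 ± 1.40%. A share also depends on the levels of the other chains, and the difference of Itga7 itself was not called (-0.36, limma adjusted p = 0.0746). Among the cytoplasmic genes Fermt2 was above all others in all libraries, at 450 to 681, followed by Tln1 and Pxn.

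**Figure D3:**
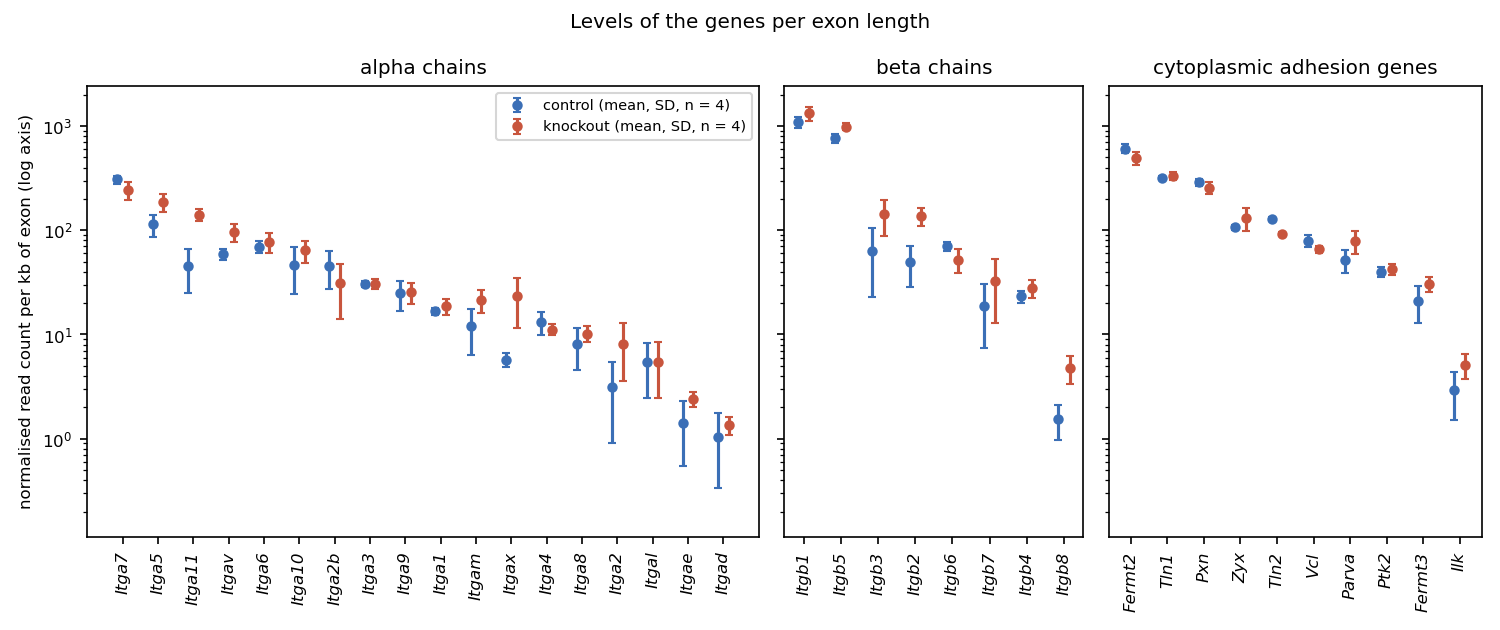
Mean normalised read count per kilobase of exon for each of the 36 members, on a log axis, with SD over the 4 libraries of each group, ordered by the mean over all libraries. Itgb1 and Itgb5 stand above the other β chains, and Itga7 leads the α chains in both groups.

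Ratios between related genes within a library do not depend on a scaling factor of that library, and 6 were formed. Itga11 to Itga1 was 0.573, 0.635, 1.15 and 0.610 in the control libraries and 2.33, 1.83, 1.595 and 2.86 in those labelled knockout, a log2 change of 1.56. Itgb2 to Itgb1, a leukocyte chain against a general one, was 0.0203 to 0.05 in the control libraries and 0.0508 to 0.119 in the others, a change of 1.26. Itga7 to Itga6 went from between 3.58 and 5.29 to between 2.50 and 3.37, a change of -0.50. Tln1 to Tln2 lay within 1.32 to 1.34 in the control libraries and between 1.67 and 2.07 in the others, a change of 0.52. For each of these 4 ratios the groups were separate, with an exact permutation p of 0.0286, the smallest that 4 against 4 can give, and an adjusted p of 0.0429 over the 6 ratios by the exact permutation test. Adjusted exact permutation p-values were 0.0571 to 0.0857 for these 4 when any 1 library was left out, although no direction turned. Itga5 to Itgav, with a change of 0.04, overlapped (exact permutation p = 0.857). Fermt3 to Fermt2 changed by 0.90 and was not called (exact permutation p = 0.0571, adjusted p = 0.0686), knockout replicate 2 lying within the control range.

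**Figure D4:**
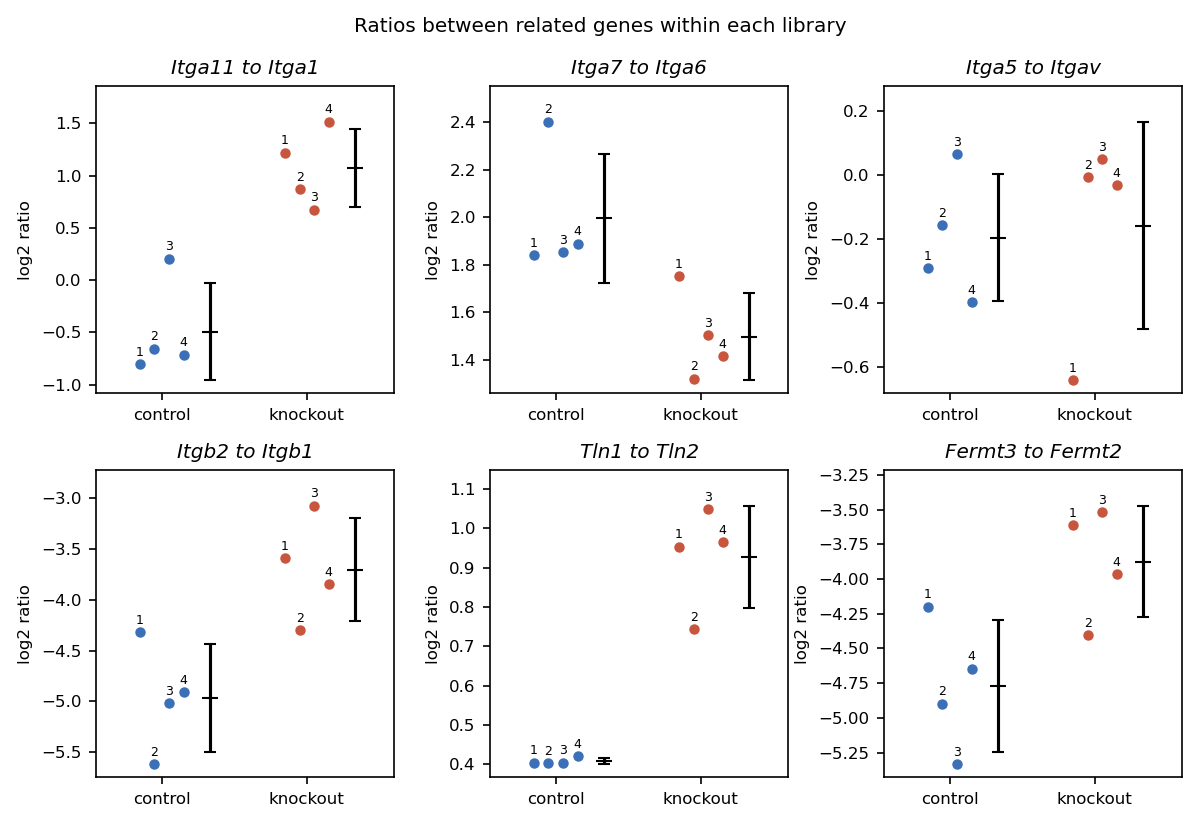
Log2 ratio of the normalised read counts of 6 pairs of related genes in each library, numbered by replicate, with the mean and SD of each group beside the points. The groups are separate for Itga11 to Itga1, Itga7 to Itga6, Itgb2 to Itgb1 and Tln1 to Tln2, and overlap for the other two.

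Libraries within a group were not alike. Control replicate 3 was the highest control for 6 of the 8 chains that rose, Itga11, Itga5, Itgav, Itgax, Itgb5 and Itgb8, and control replicate 1 for the other two, Itgb2 and Itgb3. Knockout replicates 2 and 3 were each the lowest of their group for 3 of the 8.

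The genes around the integrins were read from 4 lists of 110 genes, of which 105 were tested. Of these 36 rose and 8 fell, together 41.9% beside the 23.2% of all genes tested. The rises were 34.3% of the tested genes of the lists. These lists too were chosen with earlier results of these data known, so their shares describe the lists and test nothing. Of all genes tested 11.6% were higher and 11.6% lower, the shares to set beside each list below. Without control replicate 2 the counts of rises and falls in the lists were 21 and 5, and without control replicate 4 they were 26 and 5. Without knockout replicate 4 they were 22 and 5, and without knockout replicate 3 they were 37 and 14. Calls over all genes tested, 3461 with all 8 libraries, were 1887, 2194, 1751 and 3841 in the same fits, in this order. Of 30 tested ligands 12 rose (40%), 0 fell by limma and 18 were not called, with a median log2 difference of 0.80. Postn, periostin, a ligand of αv integrins, went from 852 ± 610 to 7616 ± 555 (3.42, limma adjusted p = 0.00397), and Tnn, tenascin-W, from 264 ± 271 to 1976 ± 513 (3.35, limma adjusted p = 0.00501).

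Of 35 further adhesion adaptors 9 rose (25.7%, beside 11.6% of all genes) and 4 fell (beside 11.6%). Actn1, the α-actinin of non-muscle cells, rose from 349 ± 56.7 to 738 ± 104 (1.08, limma adjusted p = 0.00397), and Tgfb1i1, the paxillin relative Hic-5, from 292 ± 44.3 to 588 ± 132 (0.99, limma adjusted p = 0.00600). Flnc, the filamin of muscle, fell from 17382 ± 1136 to 9760 ± 1683 (-0.85, limma adjusted p = 0.00474). The summed muscle markers given above were lower in the same libraries, and their part in the fall of Flnc was not tested.

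Of 20 kinases and phosphatases 9 rose (45%, beside 11.6% of all genes) and 2 fell (beside 11.6%). Akt1, a survival kinase downstream of integrins, rose from 1258 ± 42.9 to 1725 ± 161 (0.45, limma adjusted p = 0.00784), and Csk, which inhibits Src kinases, from 280 ± 54.3 to 443 ± 22.9 (0.68, limma adjusted p = 0.00952). Ptpn11, the phosphatase SHP2, fell by 0.45 on the log2 scale (limma adjusted p = 0.0150), a call lost under quantile normalisation (limma adjusted p = 0.0871) and the sum scaling (0.0608).

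Of 20 regulators and membrane partners 6 rose (30%, beside 11.6% of all genes) and 2 fell (beside 11.6%). Rap1b, a small GTPase that brings talin to integrins, rose from 801 ± 103 to 1279 ± 142 (0.68, limma adjusted p = 0.00644), and Dab2, an endocytic adaptor that binds β chain tails, from 578 ± 151 to 1250 ± 283 (1.12, limma adjusted p = 0.00788). Rapgef1, an activator of Rap1, fell from 4892 ± 429 to 3300 ± 135 (-0.56, limma adjusted p = 0.00456). Itgb1bp2, melusin, a muscle protein that binds β1, fell from 2262 ± 439 to 1575 ± 196 (-0.51, limma adjusted p = 0.0319). Its call was lost without control replicate 2 (0.0844) or 4 (0.0827) and without knockout replicate 1 (0.0645), 2 (0.0823) or 4 (0.0747), under quantile normalisation (0.107) and the sum scaling (0.0803) and under the replicate block (0.0852).

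**Figure D5:**
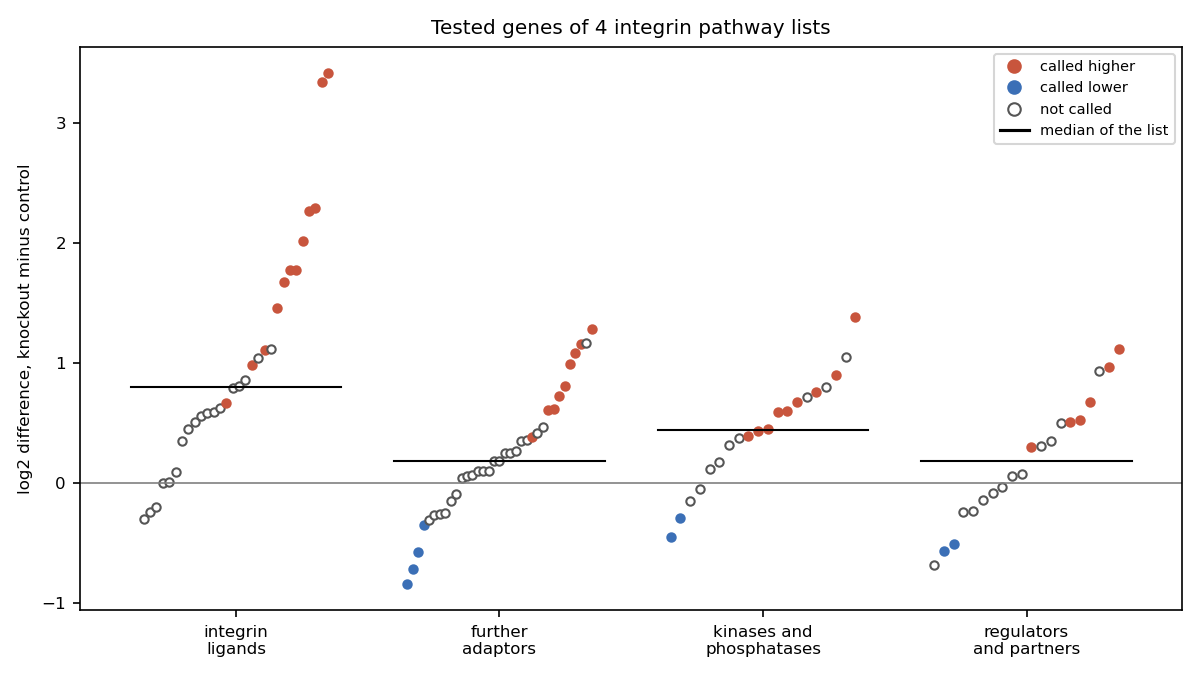
Log2 difference of each tested gene on 4 lists around the integrins, ordered within its list, filled where called by limma, with a line at the median of the list. The ligands reach the largest differences, with Postn and Tnn above 3, and hold 0 called falls.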

How the data were processed

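Poly-A RNA from 8 knee joints was sequenced, 4 labelled control and 4 labelled knockout in their titles. Per the submitters' processing notes the reads were processed with HISAT2 and featureCounts on mm10, and per the series text the authors normalised and filtered with DESeq2. Versions, annotation and strand setting are not given in the sources used here. The deposited values are a normalised signal, gene counts divided by 1 size factor per library: 100% of values were whole multiples of 1 step per library (tolerance 0.01 reads). Whole reads recovered in this way came to 13991000 to 17411617 per library, so low genes such as Itgad carry the largest counting error.

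Genes that reached 10 in 4 or more libraries were tested on log2(value + 1) with limma 3.58.1 (trend) and Benjamini-Hochberg adjustment. Fold changes are on that scale, which understates low genes. Exact two-sided permutation tests used the 70 assignments of libraries. Alternatives were pseudocounts, TMM, quantile and sum scaling, no filter, edgeR 4.0.16 and DESeq2 1.42.0 on recovered reads, a replicate block and leaving out each library. The methods were tested on simulated data. Coordinates and exon lengths are from GENCODE M21, whose symbols 99.2% of the table's names matched. Counts of the 12 pairs of libraries within groups differed beyond counting error.

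The members and lists were chosen with earlier results of these data known. All members are reported, with values by library for those called, those with separate groups and their usual partners, and the 2 called genes of smallest p per direction from each surrounding list. Some results of the surrounding lists are not reported here. Values by library for further members near a call were added after seeing them. A check of the replicate numbers is in the closing section.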

Additional observations from a re-analysis of the deposited data

Results flagged for a closer look

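In each group of 4 libraries, the highest or lowest library was flagged where its gap to the next relative to the group's whole range exceeded Dixon's 95% critical value. Of 84 groups examined over the tested members, Loxl2 and the 6 ratios, 12 were flagged, and chance flags about 1 in 20 groups. In control replicate 3, Itga11 stood at 395 beside 175 to 192 in the other controls, Itga5 at 762 beside 480 to 508, and Loxl2 at 1135 beside 282 to 349. In the same library the log2 ratio of Itga11 to Itga1 was 0.20 beside -0.80 to -0.66. In control replicate 1, Itgb3 stood at 735 (735.5 before rounding) beside 201 to 286, and Itga2 at 46.5 beside 14.0 to 15.3. In knockout replicate 3, Itga7 stood at 2556 beside 1751 to 1782. In knockout replicate 2, Itgb6 stood at 517 beside 313 to 332, and Fermt2 at 3134 beside 2337 to 2435. The log2 ratio of Itga7 to Itga6 was 2.40 in control replicate 2, beside 1.84 to 1.89. That of Itga5 to Itgav was -0.64 in knockout replicate 1, beside -0.03 to 0.05, and that of Tln1 to Tln2 was 0.42 in control replicate 4, beside 0.40 in the other controls, where the whole range is narrow.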

How the results depend on the processing

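Itga11, Itgav, Itgax, Itgb2, Itgb8 and Tln2 kept their direction and their call in all 17 alternatives. Over the tested members and the named surrounding genes, 766 of 833 values under an alternative kept direction and side of the threshold, 33 lost a call, 20 gained one and 14 turned. The turned values were all of uncalled members: Itga3 (-0.13) and Itga9 (-0.0736) and Pxn (0.0091) under quantile normalisation, Itgal under the sum scaling (0.10), edgeR (0.0133) and DESeq2 (0.0111), and, leaving out single libraries, Itga3 (-0.0345 to 0.0879), Itga9 (-0.11 to 0.25) and Itgal (-0.36 to 0.37). The cause was not tested.

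Leaving out 1 library gave 1751 to 3841 called genes (831 to 1840 higher, 913 to 2001 lower), 6 to 13 called members (5 to 11 higher, 1 to 3 lower) and 26 to 51 called surrounding genes (21 to 40 higher, 5 to 14 lower). The Loxl2 difference lay between 1.24 and 1.91 (limma adjusted p up to 0.0849), and it was not called by edgeR (1.23, edgeR adjusted p = 0.0669) or DESeq2 (1.22, DESeq2 adjusted p = 0.0719). Without 1 library the ratios changed by 1.41 to 1.79 (Itga11 to Itga1), -0.58 to -0.36 (Itga7 to Itga6), -0.0312 to 0.20 (Itga5 to Itgav), 1.05 to 1.48 (Itgb2 to Itgb1) and 0.48 to 0.58 (Tln1 to Tln2). After quantile normalisation those with separate groups, in the same order, were 1.58, -0.35, 0.85 and 0.58, with adjusted exact permutation p-values of 0.0857 to 0.171. The sum scaling moved the median of all genes to 0.15 and the calls to 2758 higher and 763 lower (78.3% higher), against 1732 and 1729. The called surrounding genes that were lower numbered 4 under it and 3 under quantile normalisation.

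The replicate numbers were not stated to mark a shared litter or day. Deviations of same-numbered libraries correlated at 0.21, -0.12, -0.23 and -0.06, so the numbers were not taken to pair the samples. With the replicate block 2018 genes were called (1117 higher, 901 lower), 5 surrounding genes were lower, and Loxl2 lost its call (1.44, limma adjusted p = 0.0513). The block kept 7 of the 9 called members, losing Itga5 and Itgb5 and adding Itga2 and Itgam.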
